A study of Mus musculus with 6 samples.

Results

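Ang and Ang2, genes of the angiogenin ribonucleases, were measured in soleus, a slow postural muscle of the hindlimb, of C57Bl/6 mice after 1 day of reloading. Each was the 1 probe to which the platform annotation gave that symbol, so the pair made up 2 of the 203 named genes and 2 of the 223 probes on the array. Ang had gene identifier 11727 (probe 3E) and Ang2 gene identifier 11731 (probe 3F), and both symbols are current in the RefSeq gene table of GRCm38.p6. The data were 6 arrays of 1 group, replicates 1 to 6, titled as wild type, each from 3 micrograms of total RNA out of cryosections. The labels did not give the age or sex of the mice, or say whether the samples were separate animals, so the spread below is that between samples and may be partly technical. No muscle that was kept unloaded or never unloaded was analysed here, so no value below is a response to reloading. The genes were selected on the wide spread of Ang between these 6 arrays together with their symbols, so their levels and spreads are described and not tested.

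Angiogenin is a small secreted ribonuclease of the pancreatic ribonuclease superfamily that induces the growth of blood vessels. It is taken up by endothelial cells and moves to the nucleolus, where it promotes transcription of ribosomal RNA, and in stressed cells it cuts transfer RNAs in the anticodon loop. The cytosolic ribonuclease inhibitor Rnh1 binds and silences it. The mouse carries several angiogenin genes, of which Ang is the counterpart of the human gene. Ang2 encodes angiogenin-related protein, a ribonuclease that does not induce vessels. Neither gene is an angiopoietin, and the angiopoietins Angpt1, Angpt2 and Angpt4 had probes of their own. In the RefSeq gene table Ang starts at the same base as Rnase4, another secreted ribonuclease. With Rnase4 included, 5 protein-coding genes other than the pair and 1 pseudogene lie in the span from Ang to Ang2. None of these neighbours, and no other member of the ribonuclease family, was among the named probes. The 2 genes are close paralogs, and whether each probe tells them apart is not known.

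Intensities were deposited on a linear scale with background already subtracted, and the total signal differed between arrays. The sums ran from 13.8 on replicate 6 through 35.2 to 41.3 on replicates 2 to 5 to 165.3 on replicate 1, an 11.9-fold span that bears on every comparison below. The arrays were therefore compared after taking log2 and subtracting each array's median over the 175 probes above 0 on all 6 arrays, called kept probes here. A value of 0 on this scale is the median kept probe of that array. The size of the most negative value on an array served as its noise bound, which was 0.0144 on replicate 1 and ran from 0.0011 to 0.0028 on the other arrays. As a check of the tissue label, 7 of 13 listed skeletal muscle markers were on the array, and all 7 exceeded the noise bound on all 6 arrays. So did 123 of the 203 named genes, these 7 among them, so the count alone says little about the tissue. The 7 muscle markers made up 10.4% to 18.2% of the summed intensity.

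Ang, the vessel-inducing angiogenin, was detected in all 6 samples and was brightest where the array as a whole was not. Its deposited intensity was 0.0241 on replicate 1, 0.0391 on replicate 2, 0.0185 on replicate 3, 0.0393 on replicate 4, 0.0806 on replicate 5 and 0.0745 on replicate 6. Replicates 5 and 6 were high and replicates 1 and 3 low, although replicate 6 was the dimmest array and replicate 1 the brightest. These values were 1.67 times the noise bound on replicate 1 and at least 7.12 times the bound on the others. After median centring the log2 level was -1.42 on replicate 1, 1.38 on replicate 2, 0.26 on replicate 3, 1.27 on replicate 4, 2.25 on replicate 5 and 2.91 on replicate 6. Only replicate 1 lay under the median kept probe. The mean was 1.11 ± 1.54 (SD, n = 6). In brightness rank among the kept probes of its array, Ang stood at 28% on replicate 1 and at 88.6% on replicate 6, which does not measure transcript abundance.

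Ang2, the angiogenin-related ribonuclease, was also detected in all 6 samples, with a smaller spread. Its deposited intensity was 0.0572 on replicate 1, 0.0239 on replicate 2, 0.0246 on replicate 3, 0.0528 on replicate 4, 0.0660 on replicate 5 and 0.0440 on replicate 6. Replicates 2 and 3 were low, and the other 4 lay between 0.0440 and 0.0660. All values were at least 3.97 times the noise bound. After median centring the log2 level was -0.18 on replicate 1, 0.67 on replicate 2, 0.68 on replicate 3, 1.70 on replicate 4, 1.97 on replicate 5 and 2.15 on replicate 6, with a mean of 1.16 ± 0.91 (SD, n = 6). As for Ang, replicate 1 was lowest and replicate 6 highest on this scale, an order that 22 of the 162 named genes above 0 on all arrays shared.

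**Figure D1:**
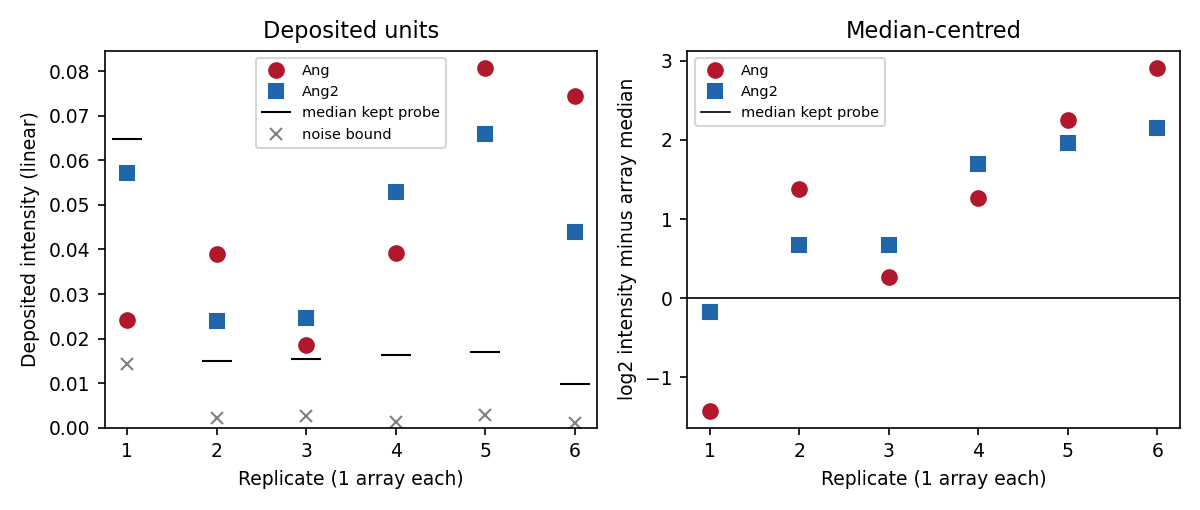
Ang (circles) and Ang2 (squares) on each of the 6 arrays, as deposited linear intensity on the left and as log2 intensity minus the array's median kept probe on the right. On the left, dashes mark the median kept probe, which is 0.0647 on replicate 1 and 0.0099 on replicate 6, and crosses mark the noise bound. Both genes lie under the median only on replicate 1.

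How much the angiogenins varied between samples depended on the scaling. Ang ranged 20.2-fold between its lowest and highest array after median centring, but 4.36-fold in deposited units and 6.58-fold relative to the 28S ribosomal RNA probe. Without replicate 1 the centred range was 6.26-fold, without replicate 6 it was 12.8-fold, and over replicates 2 to 5, whose sums differed by no more than 1.17-fold, it was 3.97-fold. Ang2 ranged 5.03-fold after median centring, 2.76-fold in deposited units and 4.19-fold relative to 28S, with 2.79-fold left without replicate 1 and 2.45-fold over replicates 2 to 5. With the noise bound allowed for on both arrays compared, the centred ranges were 12.5-fold for Ang and 3.92-fold for Ang2.

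**Figure D2:**
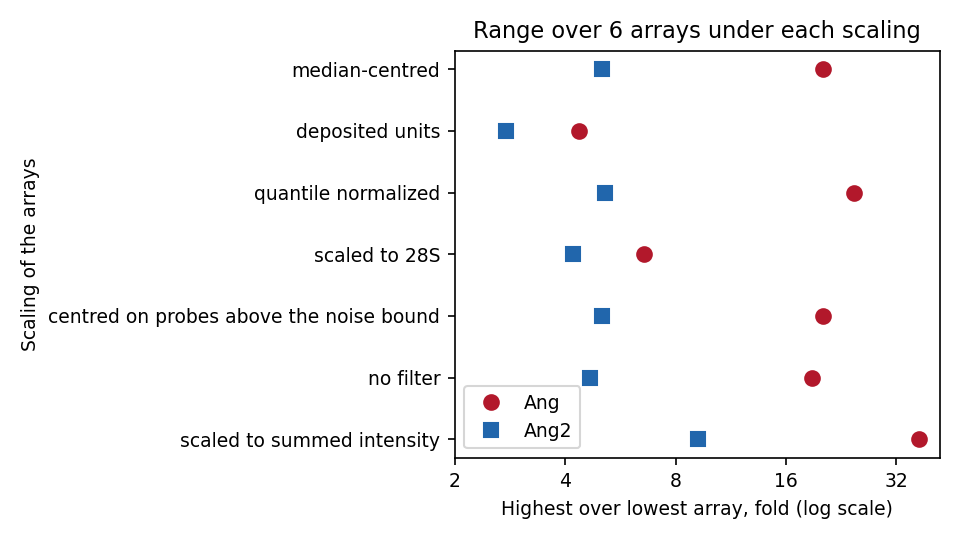
Fold between the highest and the lowest of the 6 arrays (log axis) for Ang (circles) and Ang2 (squares), under each of 7 scalings of the arrays on the vertical axis. Ang runs from 4.36-fold in deposited units to 36.9-fold relative to the summed intensity, and Ang2 from 2.76-fold to 9.18-fold. Ang has the wider range under each of these scalings.

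Among the 162 named genes above 0 on all arrays, the SD of Ang was the 6th largest on the median-centred scale. In deposited units it was only the 130th. Directly above it in the centred order stood the laminin chain Lama3 (SD 2.09) and the urokinase receptor Plaur (1.59), and directly below it the integrin chain Itga8 (1.48) and plasminogen, Plg (1.47). Each of these 4 was at or under the noise bound on 1 or 2 arrays, whereas Ang exceeded it on all 6. Of the 123 named genes that did so, Ang had the largest SD. Ang2 was the 46th of 162, between Efnb2 (ephrin B2, 0.93) and the fatty acid enzyme Acadm (0.92) above and the gut hormone gene Gip (0.91) and the laminin chain Lamc1 (0.88) below. In deposited units Ang2 was the 154th, that is, among the most even probes. The median SD of all genes was 0.64 after centring and 1.15 in deposited units.

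The 2 angiogenins did not follow the overall signal of the arrays, which most genes did. Over the 6 arrays, deposited log2 intensity changed by a median of 0.92 per log2 unit of summed intensity across the 162 genes. For Ang that slope was -0.47, and 3 genes had a lower one (Cyct, Agtr2 and Lama3), none of which was above the noise bound on all arrays. For Ang2 the slope was 0.10, with 23 genes lower. In deposited units 137 of the 162 genes were highest on replicate 1, and neither angiogenin was. Replicate 6, with a summed intensity of 13.8 against 165.3 on replicate 1, gave 3.09 times its Ang intensity. A deposited value on replicate 6 above that on replicate 1 was seen for 18 of the 162 genes, and for 6 of the 123 above the noise bound on all arrays. These 6 were Ang, Csf2rb2, Cdk4, Pparg, Efnb1 and Igf2. The set was formed by the values themselves, and Cdk4 and Efnb1 fall outside the naming rule given below.

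**Figure D3:**
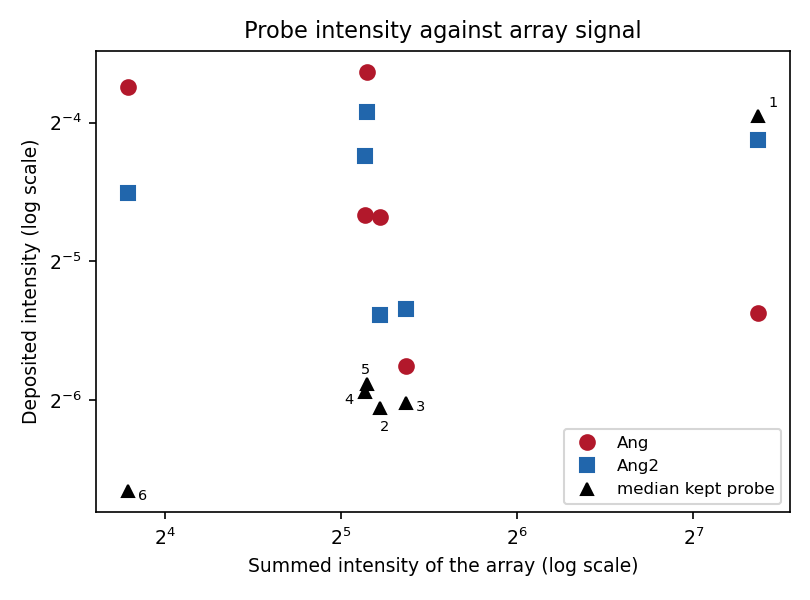
Deposited intensity of Ang (circles), Ang2 (squares) and the median kept probe (triangles, numbered by replicate) against the summed intensity of the array, both on log axes, 1 point per array. The median kept probe is highest on replicate 1 and lowest on replicate 6, while Ang is higher on replicate 6 (0.0745) than on replicate 1 (0.0241).

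**Figure D4:**
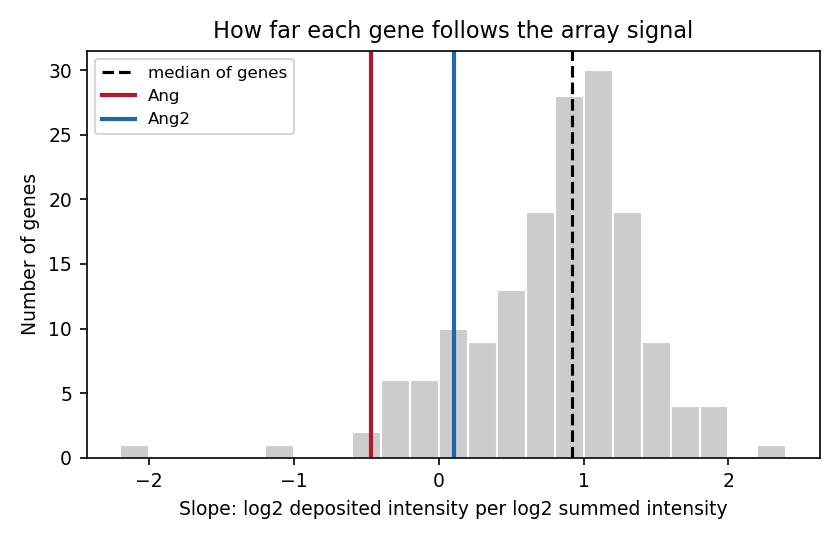
Number of genes by the slope of log2 deposited intensity on log2 summed intensity over 6 arrays, for 162 named genes. Vertical lines mark Ang at -0.47, Ang2 at 0.10 and the median of all genes at 0.92 (dashed), so both members lie in the low tail.

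On the median-centred scale both genes were high where the array signal was low. These relations come from the values the genes were selected on and are given as descriptions, with no p. The array median that is subtracted was itself highest on replicate 1 and lowest on replicate 6, the arrays with the highest and lowest sum. A probe that does not follow the array signal therefore takes a negative r on this scale by construction. The sign alone is thus not read as a property of these genes. For Ang and log2 summed intensity over the 6 arrays, Pearson's r was -0.93 and Spearman's rho -0.83. For Ang2 and the sum r was -0.85 and rho -0.89. Over replicates 2 to 5 only, r was -0.84 for Ang and -0.81 for Ang2, with a rho of -0.40 and -0.60 (n = 4). Without replicate 1 alone r was -0.79 for Ang and -0.65 for Ang2. Over the 162 named genes the median r with the sum on this scale was 0.39, and 64 genes were below 0. Relative to 28S r was -0.84 for Ang and -0.32 for Ang2. In deposited units, where nothing is subtracted, r was -0.63 for Ang and 0.19 for Ang2, so Ang2 turned sign, and 16 of the 162 genes, Ang among them, were below 0. The part of array signal or background subtraction in the levels of Ang and Ang2 was not tested.

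Probe identifiers carry a number and a letter whose meaning was not given. Of the 21 numbers, number 3, which both angiogenins carry, had the second-lowest median slope on the summed intensity, 0.10 over 7 kept probes. Those 7 include Ang and Ang2, and the median is the slope of Ang2 itself. The low place of number 3 is thus partly set by the pair and says nothing separate about them. Among its other kept probes the ephrins Efnb1 and Efnb2 had slopes of 0.05 and 0.06. The growth factor receptor Fgfr3, the polymerase subunit Pole2 and the uncoupling protein Ucp3 had 1.08, 1.01 and 0.81. The part of the probe number in the result was not tested.

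Ang and Ang2 were high and low on the same arrays after centring, and less so in deposited units, again as a description with no p. Pearson's r between them over the 6 arrays was 0.92 and Spearman's rho 0.83. Leaving out replicates 1 and 6, the farthest from the median, left r at 0.74 and rho at 0.40 over 4 arrays. Without replicate 1 alone r was 0.83 and rho 0.70. In deposited units r was 0.47 and rho 0.49, and relative to 28S they were 0.69 and 0.71. Centring subtracts the same array median from both genes, so probes that do not follow the array signal share that movement by construction. This bears on the centred r with other genes below as well.

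The log2 difference between the 2 probes on the same array is free of any scaling of the array by 1 factor. Ang2 minus Ang was 1.25 on replicate 1, -0.71 on replicate 2, 0.41 on replicate 3, 0.43 on replicate 4, -0.29 on replicate 5 and -0.76 on replicate 6. It was above 0 on 3 arrays and below 0 on 3, with a mean of 0.05 ± 0.78 (SD, n = 6). Since probes differ in their own brightness, the size of this difference is not read, only its change. The ratio of Ang2 to Ang changed 4.02-fold between replicates 1 and 6, its extremes, and 2.20-fold within replicates 2 to 5. The value on replicate 1 rests on Ang at 1.67 times the noise bound, which the 4.02-fold does not allow for. Over all pairs of the 162 genes the median SD of such a difference was 0.93, and 39.5% of pairs had a smaller SD than Ang and Ang2.

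The genes most like Ang were sought among the 122 other named genes above the noise bound on all arrays, by Pearson's r over the 6 arrays on the median-centred scale, as a description with no test. The 5 highest were the epidermal growth factor gene Egf (r = 0.98), the arterial ligand Efnb2 (0.97), the growth hormone receptor Ghr (0.96), the insulin-like growth factor gene Igf2 (0.96) and Csf2rb2, a cytokine receptor chain (0.96). Ang2 was the 7th. In deposited units these r were 0.32, 0.62, -0.24, 0.79 and 0.83, so Csf2rb2, Igf2 and Efnb2 stayed among the 4 highest, while Ghr turned sign. The 3 lowest were Lamc1 (-0.97), the AP-1 subunit Jund (-0.97) and the integrin chain Itgb1 (-0.97).

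For Ang2 the 5 highest were Csf2rb2 (0.98), Ghr (0.97), the muscle laminin chain Lamb2 (0.97), Gip (0.95) and the lymphatic growth factor Vegfd (0.95). In deposited units they were at 0.81, 0.59, 0.88, 0.95 and 0.84, all positive. The 3 lowest were Itgb1 (-0.97), the kinase gene Dmpk (-0.97) and Jund (-0.97), which in deposited units were at 0.08, 0.10 and 0.12. A second measure of likeness, the SD of the log2 ratio to the member, was a later choice, made with the data in view, and does not change with array scaling. By it the genes nearest to Ang were Csf2rb2 (SD 0.47), Igf2 (0.53), Cdk4 (0.63), Efnb2 (0.67) and Ang2 (0.78), and those nearest to Ang2 were Gip (0.28), Lamb2 (0.31), Egf (0.33), the matrix protein tenascin C, Tnc (0.38), and Csf2rb2 (0.41). Ang was the 25th of 122 for Ang2.

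The other angiogenic signals on the array fell on both sides of the angiogenins. Of 23 listed genes 19 were on the array, 14 were above 0 on all arrays and 13 above the noise bound on all. Their median SD was 0.52, against 0.64 for all genes. With Ang, 7 of the 14 had a positive r on the median-centred scale, against 58 of 161 genes (36.0%), and with Ang2 9 of 14, against 60 of 161 (37.3%). In deposited units the counts were 4 of 14 with Ang, against 34 of 161 genes (21.1%), and 13 of 14 with Ang2, against 143 of 161 (88.8%). The VEGF receptors differed after centring. Flt1 had r = 0.94 with Ang and 0.87 with Ang2. Flt4, the receptor of lymphatic vessels, had 0.96 and 0.93 though above the noise bound on 4 of 6 arrays. Kdr, the main signalling receptor, had -0.07 and 0.24. In deposited units r was 0.33 and 0.70 for Flt1, 0.88 and 0.78 for Flt4 and -0.49 and 0.44 for Kdr. With Ang2 these receptors were thus all positive there. Of the ligands after centring, Vegfd had 0.79 and 0.95, the angiopoietin Angpt2 0.64 and 0.83 and Efnb2 0.97 and 0.89. Vegfb had -0.82 and -0.56, and Pdgfb, a ligand that recruits pericytes, had -0.78 and -0.84. Vegfa, at -0.36 and -0.03, and Tgfb1, at -0.15 and 0.15, lay between. In deposited units r was -0.0038 and 0.84 for Vegfd, 0.23 and 0.88 for Angpt2 and 0.62 and 0.76 for Efnb2. It was -0.51 and 0.41 for Vegfb, -0.66 and 0.07 for Pdgfb, -0.39 and 0.54 for Vegfa and -0.58 and 0.37 for Tgfb1. With Ang2 all of these were positive, so there the split between ligands was gone. After centring the most even member was Pdgfrb, the receptor for Pdgfb (SD 0.15, 1.32-fold), and the least even was Flt4 (SD 1.39). In deposited units these were Flt1 (1.78-fold) and Pdgfb (26.7-fold).

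The closer partners of angiogenin were thinly covered. Of 10 listed genes 2 were on the array: Egfr, a reported angiogenin receptor, and 28S ribosomal RNA, Rn28s1, whose transcription angiogenin promotes. Rnh1 and Plxnb2, a further receptor, were not among the named probes. Rn28s1 had r = 0.80 with Ang and 0.56 with Ang2 after centring but -0.20 and 0.11 in deposited units, and Egfr 0.63 and 0.67 after centring but -0.59 and 0.37 in deposited units, so no direction held for Ang across these scales. Of the plasminogen system, through which angiogenin at the cell surface can favour plasmin formation, 4 of 7 genes were on the array, all above 0 on 6 arrays and 0 of them above the noise bound on all. After centring Plg had r = 0.83 with Ang and 0.94 with Ang2, and Plaur -0.82 and -0.81, both with 2 arrays at or under the bound. In deposited units they were at 0.57 and 0.74, and at -0.78 and -0.05. The smallest centred SD of the 4 was that of Plau, the urokinase gene (0.42), and the largest that of Plaur (1.59).

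**Figure D5:**
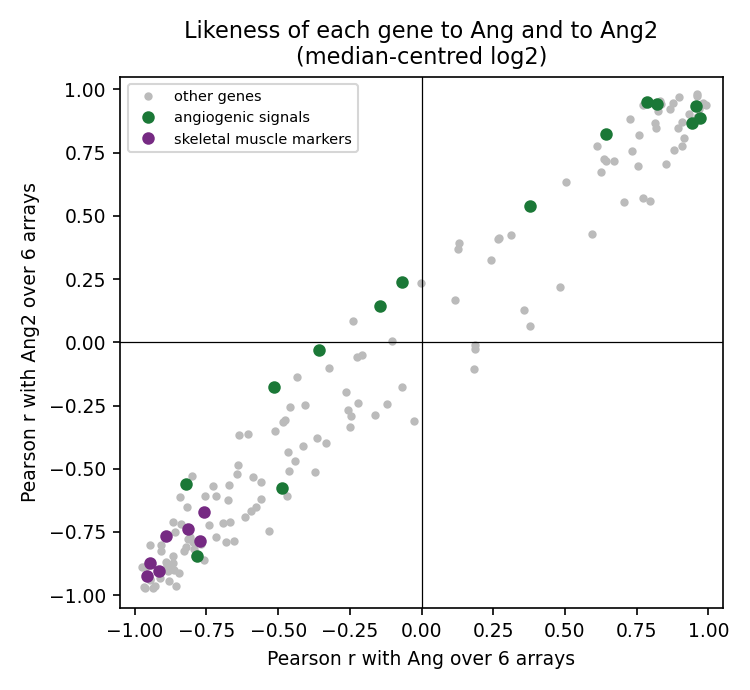
Pearson r over 6 arrays of each named gene with Ang (horizontal) and with Ang2 (vertical), on the median-centred log2 scale, with listed angiogenic signals in green and skeletal muscle markers in purple. All 7 muscle markers lie at the lower left on this scale, and of the 14 angiogenic signals 7 have a positive r with Ang and 9 with Ang2. Over all named genes 58 of 161 (36.0%) have a positive r with Ang and 60 of 161 (37.3%) with Ang2.

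Markers of the cell types in the muscle moved with the angiogenins as follows. All 7 skeletal muscle markers had a negative r with both genes after centring, from -0.96 to -0.76 with Ang and from -0.93 to -0.67 with Ang2. In deposited units all 7 were still negative with Ang, from -0.82 to -0.63, but 6 of 7 were positive with Ang2, from -0.02 to 0.23 over the list. Over all named genes, a positive r after centring was seen for 58 of 161 (36.0%) with Ang and 60 of 161 (37.3%) with Ang2. In deposited units it was seen for 34 of 161 (21.1%) and 143 of 161 (88.8%), so the 6 of 7 with Ang2 is near the share of all genes. All 5 endothelial markers on the array, of 7 listed, exceeded the noise bound on all 6 arrays, as did 123 of the 203 named genes. The summed share of these 5 markers in the array's intensity was 0.288% on replicate 1 and 0.767% on replicate 6. That share was 0.328%, 0.327%, 0.501% and 0.681% on replicates 2 to 5. Gene by gene after centring, 3 of the 5 had a positive r with Ang and 4 with Ang2, from 0.94 and 0.87 for Flt1 to -0.52 and -0.18 for Tek, a receptor of the angiopoietins. In deposited units 2 of 5 were positive with Ang and 5 of 5 with Ang2, where most genes were positive with Ang2 (88.8%). The 3 adipocyte markers on the array, of 6 listed, made up between 0.325% on replicate 3 and 0.897% on replicate 6. After centring Pparg had r = 0.70 with Ang and 0.55 with Ang2, and Fabp4, a fatty acid carrier of fat cells, -0.85 and -0.91, which in deposited units were 0.37 and 0.33, and -0.65 and 0.12. Of 4 liver markers 1 was on the array, Plg, at between 0.0016% of the sum on replicate 1 and 0.0376% on replicate 6. The shares of the endothelial markers, the plasminogen system and the angiogenin partners were likewise lowest on replicate 1 and highest on replicate 6. That of the muscle markers was highest on replicate 1. The sum that divides these shares differed 11.9-fold between replicates 1 and 6. Of 9 listed myeloid markers 2 were on the array, the cytokine genes Il1b and Il6, which do not define these cells. Il1b rose above 0 on 0 arrays, Il6 did so on 1, and neither exceeded the noise bound on any of the 6. The other listed myeloid markers were not among the named probes, so the presence of myeloid cells is not read from these values. The part of any of these cell types in the levels of Ang and Ang2 was not tested, and in whole muscle fewer cells of a type cannot be told apart from less RNA per cell.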

How the data were processed

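The data were the series' value table, with 1 intensity per probe and array for 6 arrays of 223 probes. The intensities deposited by the authors were on a linear scale and reached below 0, as the values show. What scanner, background method or normalization was used is not given in the sources used here, and no file gave counts or spot-level errors, so the number of arrays limits the precision. The platform annotation named 205 probes with 1 gene each and 18 with none. Probes above 0 on all arrays were kept (175 probes, 162 named genes, the brighter probe where a gene had 2), log2 was taken with no pseudocount, and each array was centred on its median. The planned exact two-sided permutation tests over all 720 pairings, adjusted by Benjamini and Hochberg over 3 relations, gave p = 0.00556 for each Pearson's r before and after adjustment. For Spearman's rho the exact permutation p was 0.0583 for Ang with Ang2, 0.0583 for Ang with the summed intensity and 0.0333 for Ang2 with it, each 0.0583 once adjusted. Since the genes were selected on these values, the p-values support nothing and the relations are described. The slopes on the summed intensity and the permutation correlations were tested on simulated data. The other steps were not part of that test. Python 3.11.15, numpy 2.4.6, pandas 2.3.3, scipy 1.17.1 and matplotlib 3.10.9 were used.

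Genes were named by this rule: Ang and Ang2, the 5 genes with the highest and the 3 with the lowest r to each, their 2 neighbours on either side in the order of SD, and members of the lists. Outside it, Cyct, Agtr2, Efnb1, Fgfr3, Pole2, Ucp3, Cdk4 and Tnc were named after their values were seen. The members and lists were chosen with earlier results of these data known. For list members, values were planned only for those with the smallest and largest SD, so other values of list members went beyond that plan. Alternatives were deposited units, quantile normalization, scaling to 28S, centring on probes above the noise bound, no filter on dim probes, and leaving out each replicate. Scaling to the summed intensity and keeping replicates 2 to 5 only were added after the data had been seen.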

Additional observations from a re-analysis of the deposited data

Results flagged for a closer look

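The summed intensity of replicate 1, 165.3 in deposited units, stood apart from the other 5 arrays, with a gap to the next of 0.819 of the whole range, beyond Dixon's 95% critical value for 6 samples. This was 1 of 6 sets of values looked at, and chance flags about 1 in 20. Among the other 5, the levels of Ang and Ang2 on either scale and their difference, the gap was at most 0.409 of the range. The log2 of the summed intensity, which the relations above used, was not among these sets, so the flag holds for the linear sum only.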

How the results depend on the processing

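In deposited units r was 0.47 for Ang with Ang2, -0.63 for Ang with the summed intensity and 0.19 for Ang2 with it, a turn of sign, and Ang ranged 4.36-fold. Scaled to 28S, Ang with Ang2 had r = 0.69, Ang with the sum -0.84, Ang2 with the sum -0.32, and Ang ranged 6.58-fold. With replicates 2 to 5 only, the 3 relations had r = 0.74, -0.84 and -0.81, and the ranges were 3.97-fold for Ang and 2.45-fold for Ang2. Leaving out each replicate gave r from 0.83 to 0.98 for Ang with Ang2, from -0.97 to -0.79 for Ang with the sum and from -0.91 to -0.65 for Ang2 with it. It gave ranges from 6.26-fold to 20.2-fold for Ang and from 2.79-fold to 5.03-fold for Ang2, and means of Ang2 minus Ang from -0.18 to 0.22. After quantile normalization, centring on probes above the noise bound, no filter and scaling to the sum, r was from 0.90 to 0.94 for Ang with Ang2, from -0.94 to -0.93 for Ang with the sum and from -0.89 to -0.84 for Ang2 with it. For rho, whose planned adjusted exact permutation p was 0.0583 in each relation, that p was from 0.00833 to 0.025 under these 4 settings for Ang with Ang2, and from 0.0167 to 0.0333 for Ang2 with the sum. For Ang with the sum it was 0.0583, 0.0583, 0.025 and 0.0167. As the genes were selected on these values, these p-values support nothing either. Under scaling to the sum, the log2 sum is subtracted from each value before the comparison with it. The relations with the sum then carry it on both sides, so that setting is no independent check of them. Apart from the values that follow from fewer samples, the cause was not tested. No paired analysis was possible because the arrays formed 1 group. Signal over background limits Ang most on replicate 1, at 1.67 times the noise bound.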
